A study of Mus musculus with 12 samples.

Results

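The genes described here are 35 genes of fatty acid oxidation and lipid handling in osteoclasts, the bone-resorbing cells, cultured from mouse marrow. They were taken as a named list, out of 55414 gene IDs counted in each library, and chosen with earlier results of these data known. They cover the carnitine shuttle, the mitochondrial and peroxisomal oxidation steps, electron transfer, acyl-CoA synthesis, lipid uptake and storage, and the PPAR receptors. RNA was sequenced from 12 osteoclast cultures in 4 groups of 3 libraries. The groups were Notch2 mutant with Hes1 loxP, wild type with Hes1 loxP, Notch2 mutant with Hes1 deletion, and wild type with Hes1 deletion. Hes1 loxP names a Hes1 gene flanked by recombination sites. All cultures came from bone marrow macrophages of male mice aged 7 to 8 weeks, kept in M-CSF, a macrophage growth factor (30 ng/ml). From day 3 they also received RANKL, the osteoclast-inducing cytokine, over 4 days. The labels and files used here do not say which Notch2 mutation was carried, how Hes1 was deleted or how many mice stand behind a library. The labels call the 3 libraries of a group biological replicates.

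Fatty acids enter cells or are released from lipid droplets, are joined to coenzyme A, and reach the mitochondrial matrix by way of carnitine esters. There, repeated rounds of dehydrogenation, hydration, a further dehydrogenation and thiolysis shorten the chain, and the electrons pass through electron transfer flavoprotein to the respiratory chain. Peroxisomes shorten very long and branched chains first. Osteoclasts hold many mitochondria, and PPAR gamma and PPAR delta are lipid-sensing nuclear receptors with roles in macrophages and osteoclasts.

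Each library held between 13832368 and 19293772 assigned counts. All 35 members passed the filter on low counts, which left 13403 genes. Hes1 itself was scarce, at 0 to 0.0625 CPM in Notch2 mutant Hes1 deletion libraries against 0.113 to 0.221 CPM in Notch2 mutant Hes1 loxP libraries, and at 0 to 0.122 CPM in wild type Hes1 deletion libraries against 0.334 to 0.573 CPM in wild type Hes1 loxP libraries. Summed over the libraries of a group, these were 2 counts against 7 in the Notch2 mutant and 2 against 23 in wild type. Such low counts are a weak check of the deletion. Notch2 RNA does not check the mutation, whose kind is not given. The osteoclast genes Acp5 and Ctsk stood at 6074 to 9596 CPM and 3972 to 11461 CPM over the 12 libraries. Values are TMM-scaled CPM, the counts of a gene relative to the library's total over the 13403 genes tested. Log2 fold changes carry a standard error (SE). In bulk RNA, fewer cells of a type and less RNA per cell cannot be told apart.

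Lpl, the secreted lipase that frees fatty acids from lipoprotein triglyceride, was the most abundant member per length of transcript. Its level per kb of the principal transcript averaged 338 CPM per kb over the 12 libraries. Fabp5, a fatty acid carrier protein, followed at 171 CPM per kb, Plin2, which coats lipid droplets, at 152 and Acaa2, the mitochondrial thiolase, at 117. Lpl alone made up 28.3 to 33.4% of the summed CPM of the 35 genes. At the other end stood Lpin1, a phosphatidate phosphatase and transcriptional coactivator, at 3.46 CPM per kb, Pparg at 2.16 and Fabp4, the fatty acid carrier of fat cells and macrophages, at 1.55. Fabp4 had 12 to 35 counts per library and Pparg 42 to 93, so their differences are the least precise. With the union of all annotated exons as the length, Lpl stayed in rank 1 and Plin2 in rank 3, while Acaa2 took rank 2 and Fabp5 rank 6.

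**Figure D1:**
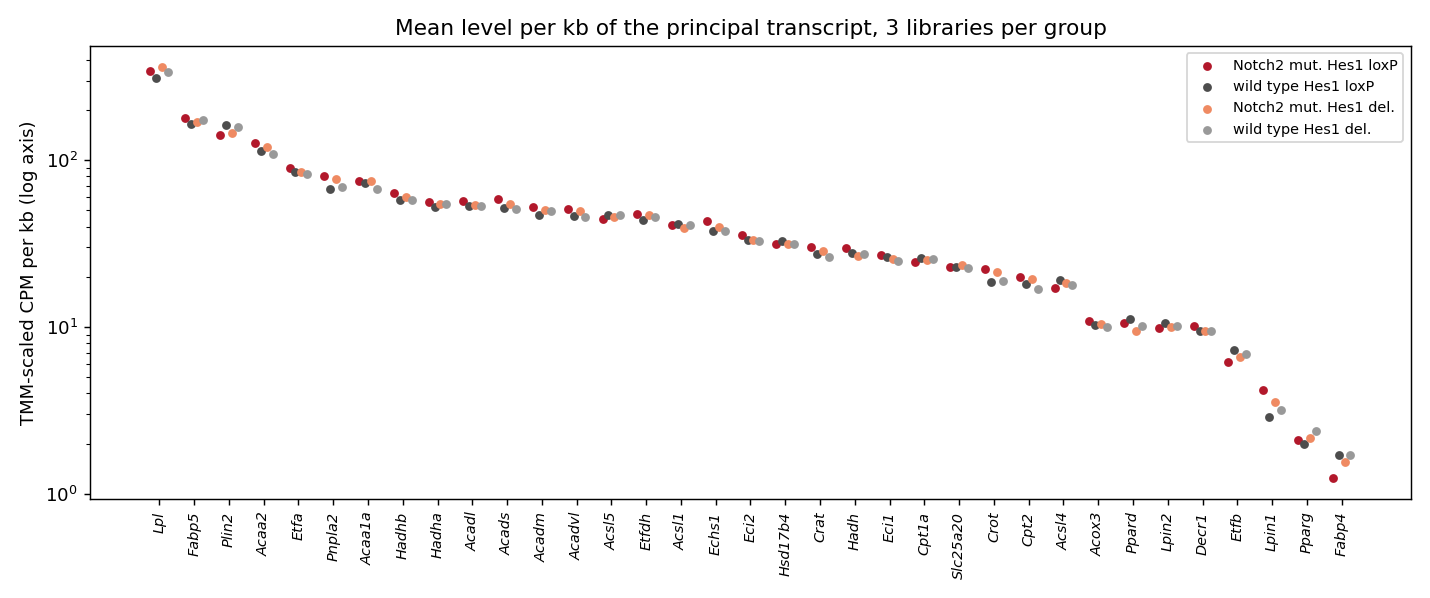
Mean TMM-scaled CPM per kb of the principal transcript (log axis) for the 35 members, ordered by the mean over 12 libraries, with 1 point per group of 3 libraries. The 4 groups lie close together for most genes, and the members range from Lpl at 338 to Fabp4 at 1.55 CPM per kb.

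None of these 4 abundant genes passed the test between Notch2 mutant and wild type osteoclasts. Lpl was at 1392, 1324 and 1485 CPM in Notch2 mutant Hes1 loxP libraries, against 1340, 1250 and 1243 CPM in wild type Hes1 loxP libraries. With the Hes1 deletion it was at 1401, 1483 and 1610 CPM in the Notch2 mutant and 1476, 1430 and 1281 CPM in wild type. The groups overlapped in both settings, and the log2 fold changes were 0.13 ± 0.06 and 0.10 ± 0.06 (edgeR quasi-likelihood test with Benjamini-Hochberg adjustment, adjusted p = 0.353 and 0.812). Fabp5 was at 179.4, 189.5 and 161.1 CPM in Notch2 mutant and 165.9, 166.2 and 155.4 CPM in wild type Hes1 loxP libraries, and its groups overlapped too (0.12 ± 0.06). With the Hes1 deletion, Fabp5 was at 174.2, 158.0 and 166.1 CPM in the Notch2 mutant and 162.9, 165.7 and 185.9 CPM in wild type, again with overlap. Acaa2 was at 188.4, 185.1 and 201.8 CPM in the Notch2 mutant and 164.5, 174.7 and 177.1 CPM in wild type with Hes1 loxP, which do not overlap. Its log2 fold change of 0.16 ± 0.06 did not pass (edgeR quasi-likelihood test, Benjamini-Hochberg adjusted p = 0.236). Plin2 was at 262.9, 261.0 and 280.4 CPM in the Notch2 mutant, all below the 293.3, 300.4 and 324.5 CPM of wild type with Hes1 loxP. Its log2 fold change of -0.19 ± 0.07 did not pass either (edgeR quasi-likelihood test, Benjamini-Hochberg adjusted p = 0.191). With the Hes1 deletion, Plin2 was at 261.4, 286.9 and 273.5 CPM in the Notch2 mutant and 272.1, 282.8 and 335.1 CPM in wild type. Acaa2 was then at 182.4, 170.5 and 192.5 CPM in the mutant and 170.3, 174.3 and 150.7 CPM in wild type. Both genes overlapped between the genotypes there.

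With Hes1 loxP, 2 members were higher in Notch2 mutant osteoclasts, Lpin1 and Crot, and no member passed as lower. Over all 13403 genes 0.142% passed as higher, 0.634% as lower and 0.776% in either direction. Lpin1 (ENSMUSG00000020593, chromosome 12, 16535669 to 16610966, minus strand, GRCm38) was at 25.8, 21.4 and 23.1 CPM in Notch2 mutant libraries, against 16.4, 16.0 and 16.2 CPM in wild type libraries. All 3 mutant libraries lay above all 3 wild type libraries, whose spread was narrow. The means were 23.4 ± 2.23 CPM in the mutant and 16.2 ± 0.197 CPM in wild type (SD, n = 3). The log2 fold change was 0.53 ± 0.11 with a 95% interval of 0.30 to 0.76 (edgeR quasi-likelihood test, Benjamini-Hochberg adjusted p = 0.0302). Its paralog Lpin2 was at -0.09 ± 0.06 and did not pass. The ratio of Lpin2 to Lpin1 CPM was 2.04 to 2.74 in the mutant and 3.57 to 3.79 in wild type. With the Hes1 deletion this ratio overlapped between the genotypes, at 2.66 to 3.24 in the mutant and 2.86 to 4.03 in wild type. The Lpin1 call was lost without Notch2 mutant Hes1 loxP replicate 1 or 3, or any of the 3 wild type Hes1 loxP libraries (adjusted p up to 0.0993 in the edgeR quasi-likelihood test).

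Crot, which joins carnitine to medium-chain acyl groups made in peroxisomes, lies on chromosome 5 (ENSMUSG00000003623, 8966033 to 8997324, minus strand, GRCm38). It was at 65.7, 65.3 and 70.6 CPM in Notch2 mutant libraries, against 57.3, 53.6 and 56.2 CPM in wild type libraries with Hes1 loxP. The 2 groups did not overlap, at means of 67.2 ± 2.94 CPM in the mutant and 55.7 ± 1.89 CPM in wild type (SD, n = 3). The log2 fold change was 0.27 ± 0.06 with a 95% interval of 0.15 to 0.39 (edgeR quasi-likelihood test, Benjamini-Hochberg adjusted p = 0.0328). Without any one of these 6 libraries, or with only the groups compared in the fit, the adjusted p lay between 0.0509 and 0.159. Crot exons overlap Gm37153, on the other strand, and Gm27941 on the same strand.

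Most mitochondrial oxidation genes had small positive values that did not pass the test. Of the 35 members 24 had positive log2 fold changes and the median was 0.09, beside 50.9% of all genes positive and a median of 0.00. Positive values were found for 17 of the 20 genes grouped as mitochondrial oxidation (median 0.11) and 7 of the other 15 (median -0.02). That group takes in the whole carnitine shuttle, and so Crot, which at 0.27 was its highest value and its only called gene. At an unadjusted p under 0.05, 13 members were higher and 2 lower, beside 7.19% and 6.96% of all genes. The libraries of the 2 groups did not overlap for 13 members higher in the mutant and 3 lower, beside 9.83% and 8.51% of all genes. Leaving out 1 library at a time moved the members' median between 0.08 and 0.12.

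By role, all 4 acyl-CoA dehydrogenases, which start each round of oxidation, were positive, at 0.09 to 0.18, and none passed. Acads, the short-chain enzyme, was highest at 0.18 ± 0.06 and was called without wild type Hes1 loxP replicate 3. All 5 genes of the hydratase, hydroxyacyl dehydrogenase and thiolase steps were positive, at 0.10 to 0.21. Echs1, the short-chain enoyl-CoA hydratase, was at 67.9, 67.4 and 66.1 CPM in the Notch2 mutant and 60.0, 58.0 and 56.7 CPM in wild type with Hes1 loxP. These groups did not overlap, and the log2 fold change of 0.21 ± 0.05 fell short of the threshold (edgeR quasi-likelihood test, Benjamini-Hochberg adjusted p = 0.0740). Exons of Echs1 overlap Paox on the other strand. In all, exons of 12 members overlap another gene. The largest overlaps are 1151 bases of Acadvl with Dvl2, 1039 of Acsl1 with Gm45244 and 700 of Acox3 with 4931431C16Rik. All of these are on the other strand. Hadha and Hadhb, the 2 subunits of the mitochondrial trifunctional protein, kept a CPM ratio of 1.69 to 1.87 over all 12 libraries. Hadhb has a processed pseudogene, Gm13910, that is 99.8% identical over 1428 bases, and Fabp5 has similar copies, so their reads are less certainly assigned.

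The carnitine shuttle was mixed. Cpt1a, which makes the carnitine esters at the outer membrane, was at -0.07 ± 0.06, while Cpt2, which reverses that step inside, was at 0.14 ± 0.07 and Crat, the acetyl-group enzyme, at 0.14 ± 0.05. Slc25a20, the carnitine carrier of the inner membrane, was at -0.00 ± 0.06. In electron transfer, Etfa and Etfdh were at 0.08 ± 0.06 and 0.11 ± 0.05 and Etfb at -0.23 ± 0.16. Etfb had only 69 to 137 counts per library, and 617 bases of its exons are shared with Gm45233 on the same strand. In peroxisomes, Acox3, an acyl-CoA oxidase, was at 0.08 ± 0.09, Acaa1a at 0.05 ± 0.05 and Hsd17b4, the bifunctional enzyme, at -0.05 ± 0.05. The 3 double-bond auxiliary enzymes, which handle unsaturated chains, were positive at 0.04 to 0.11. All 3 acyl-CoA synthetases were negative, at -0.15 to -0.02, with Acsl4, which favours arachidonic acid, lowest.

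Among the storage genes, Pnpla2, the adipose triglyceride lipase that starts lipolysis, was at 150.5, 129.0 and 156.4 CPM in the Notch2 mutant and 125.7, 113.2 and 124.9 CPM in wild type with Hes1 loxP. These groups did not overlap, and the log2 fold change was 0.26 ± 0.07 (edgeR quasi-likelihood test, Benjamini-Hochberg adjusted p = 0.0806). The ratio of Pnpla2 to Plin2 CPM was 0.494 to 0.573 in the mutant and 0.377 to 0.429 in wild type. With the Hes1 deletion this ratio overlapped between the genotypes, at 0.445 to 0.558 in the mutant and 0.352 to 0.474 in wild type. With Hes1 loxP, Fabp4 was at 0.882 to 1.29 CPM in the mutant and 1.28 to 1.82 CPM in wild type, which overlap, at -0.45 ± 0.28. Summed over the 35 genes, CPM was 4668 ± 84.6 in the mutant and 4420 ± 32.4 in wild type (SD, n = 3). Without Lpl, whose groups overlapped, the sums were 3268 ± 4.05 and 3142 ± 22.2 CPM. With the Hes1 deletion the sums over the 35 genes were 4671 ± 135 CPM in the mutant and 4510 ± 96.1 CPM in wild type. Of the PPAR receptors, Ppard was at -0.09 ± 0.07 and Pparg at 0.07 ± 0.21 with Hes1 loxP.

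**Figure D2:**
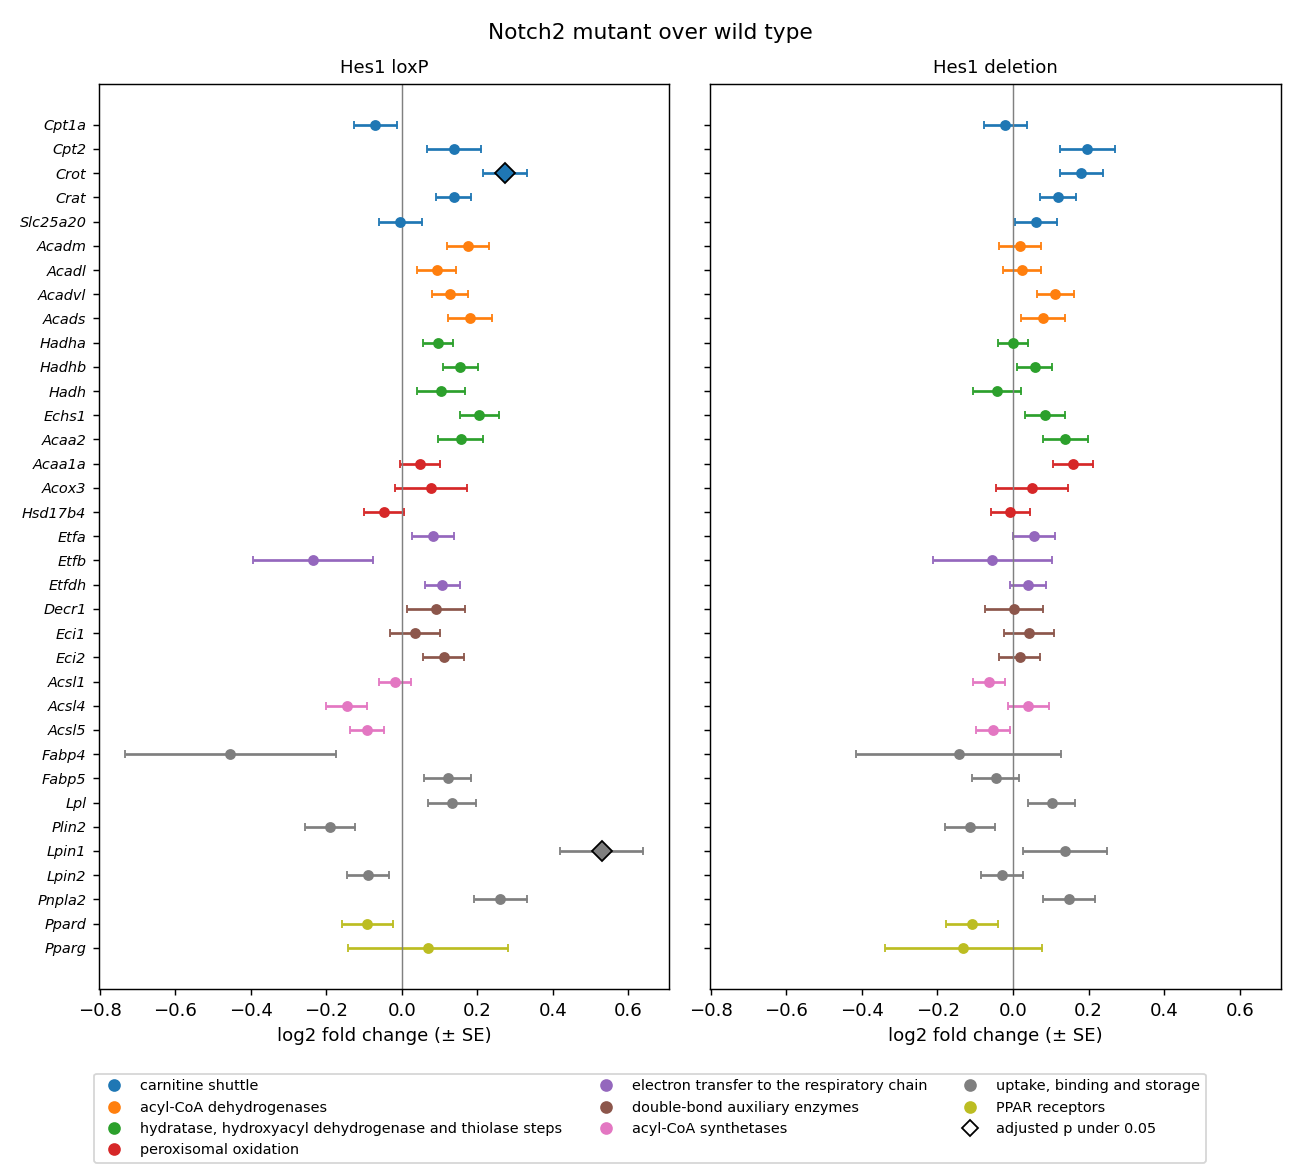
Log2 fold change of Notch2 mutant over wild type for the 35 members with Hes1 loxP (left) and with the Hes1 deletion (right), coloured by role. Points are edgeR estimates, bars are SE, and diamonds mark the 2 members past the threshold, Lpin1 at 0.53 and Crot at 0.27 with Hes1 loxP.

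With the Hes1 deletion, no member passed between Notch2 mutant and wild type osteoclasts, beside 0.0149% of all genes. At an unadjusted p under 0.05, 7 members were higher and 0 lower, beside 3.22% and 3.48% of all genes, and DESeq2 also called 0. Members had a median of 0.04, with 23 of 35 positive, beside 50.6% of all genes. By role, all 4 acyl-CoA dehydrogenases and 4 of the 5 carnitine shuttle genes were positive, at medians of 0.05 and 0.12. Crot was at 65.6, 61.5 and 65.9 CPM in the Notch2 mutant, above the 58.9, 58.3 and 53.0 CPM of wild type. The groups did not overlap, and the log2 fold change was 0.18 ± 0.06 (edgeR quasi-likelihood test, Benjamini-Hochberg adjusted p = 0.628). Acaa1a, the peroxisomal thiolase, was at 136.1, 128.8 and 133.7 CPM in the mutant and 119.6, 124.4 and 113.0 CPM in wild type. Cpt2 was at 47.9, 47.5 and 42.5 CPM in the mutant and 40.9, 40.1 and 39.3 CPM in wild type. Both were higher in every mutant library, at log2 fold changes of 0.16 ± 0.05 and 0.20 ± 0.07 that did not pass (edgeR quasi-likelihood test, Benjamini-Hochberg adjusted p = 0.650 for each). Exons of Acaa1a overlap Myd88 on the other strand. In all, 6 members were higher and 1, Ppard, lower without overlap, beside 6.06% and 6.4% of all genes. Lpin1 was at 21.6, 17.5 and 20.1 CPM in the mutant and 19.3, 19.7 and 14.6 CPM in wild type, and here the groups overlapped (0.14 ± 0.11). The lowest of these was wild type Hes1 deletion replicate 3.

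The Notch2 comparisons in the 2 Hes1 states share no libraries. The log2 fold changes had the same sign in both for 30 of 35 members, 85.7%, beside 62.5% of all genes. This is a description without a test.

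**Figure D3:**
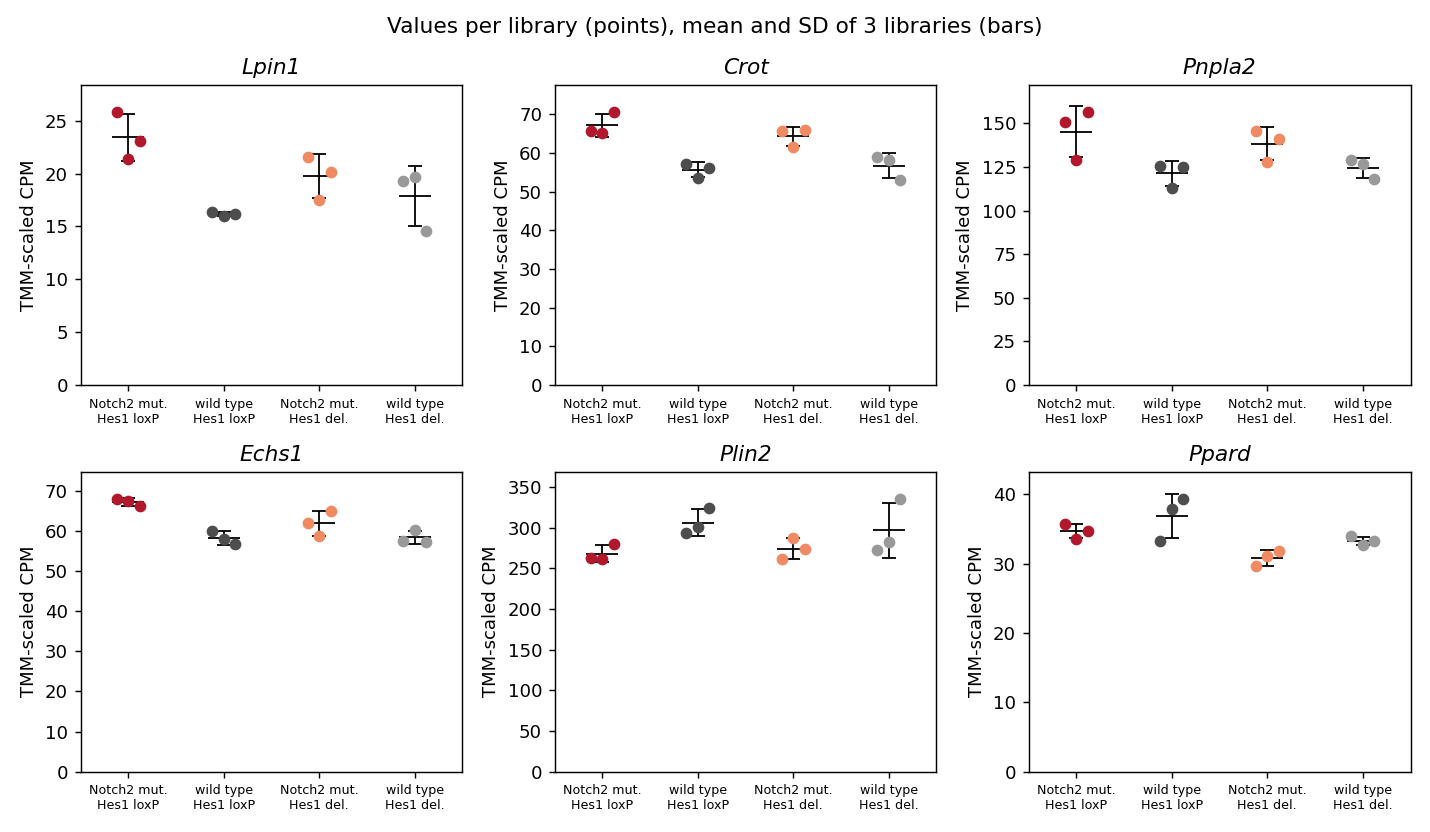
TMM-scaled CPM in each of the 12 libraries for 6 members, with the mean and SD of 3 libraries per group. Notch2 mutant and wild type libraries are separate with Hes1 loxP for Lpin1, Crot, Pnpla2, Echs1 and Plin2, and for Crot and Ppard with the Hes1 deletion.

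Averaged over both Hes1 states, 3 members rose in Notch2 mutant osteoclasts, Crot, Lpin1 and Pnpla2, beside 0.768% of all genes higher and 1.89% in either direction. As lower, 1.12% of all genes passed and 0 members did. This comparison uses the same libraries as those above. At an unadjusted p under 0.05, 14 members were higher and 2 lower, beside 8.09% and 8.18% of all genes, and 24 of 35 were positive, beside 50.4%. Crot was at 0.23 ± 0.04 with a 95% interval of 0.14 to 0.31 (edgeR quasi-likelihood test, Benjamini-Hochberg adjusted p = 0.00909), and it stayed past the threshold under all 18 alternatives. Lpin1 was at 0.33 ± 0.08 and Pnpla2 at 0.20 ± 0.05 (edgeR quasi-likelihood test, Benjamini-Hochberg adjusted p = 0.0360 and 0.0389), and each passed under 10 of 18. With 1 library left out, 7 of the 12 left Crot alone: Notch2 mutant Hes1 loxP replicates 1 and 3, wild type Hes1 loxP replicates 1 and 2, Notch2 mutant Hes1 deletion replicates 1 and 3, and wild type Hes1 deletion replicate 3. Pnpla2 with the Hes1 deletion was at 145.9, 127.6 and 141.1 CPM in the Notch2 mutant and 128.9, 126.9 and 118.1 CPM in wild type, which overlap.

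The promoters of the 3 called genes and the short gap between Hadha and Hadhb, which are transcribed away from each other, are shown because these RNAs start there. They are read from RefSeq (GRCm38.p6), each promoter from 250 bases before to 50 after the annotated start, and 28 of the 35 members had one in the table. Capitals mark 1 motif each, searched on both strands, and other motifs are left in lower case. The Crot promoter (chr5:8997097-8997396, minus strand) has the N box letters CACNAG, to which HES proteins can bind, 166 bases before the RefSeq start at 8997146. The gene model behind the coordinates given above starts 178 bases further upstream, at 8997324, so that these letters lie 12 bases after that start, inside the gene. The Lpin1 promoter (chr12:16610917-16611216, minus strand) has AGGTCA, a core element of nuclear receptors, 74 bases before the start, which is the same in both annotations. The Pnpla2 promoter (chr7:141454938-141455237, plus strand) has TGGGAA, the letters bound by the Notch partner RBPJ, 164 bases before the RefSeq start, and the 2 annotated starts are 10 bases apart.
Crot: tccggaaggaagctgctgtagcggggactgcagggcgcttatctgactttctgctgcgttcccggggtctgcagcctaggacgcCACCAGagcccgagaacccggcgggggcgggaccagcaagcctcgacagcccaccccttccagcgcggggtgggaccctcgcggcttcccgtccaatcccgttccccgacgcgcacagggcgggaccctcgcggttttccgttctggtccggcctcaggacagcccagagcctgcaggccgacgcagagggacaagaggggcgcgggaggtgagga
Lpin1: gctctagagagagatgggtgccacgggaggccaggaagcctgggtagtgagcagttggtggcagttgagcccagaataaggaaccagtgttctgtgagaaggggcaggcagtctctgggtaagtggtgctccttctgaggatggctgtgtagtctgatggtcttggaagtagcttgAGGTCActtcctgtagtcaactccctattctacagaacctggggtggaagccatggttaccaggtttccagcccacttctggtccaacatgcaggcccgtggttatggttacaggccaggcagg
Pnpla2: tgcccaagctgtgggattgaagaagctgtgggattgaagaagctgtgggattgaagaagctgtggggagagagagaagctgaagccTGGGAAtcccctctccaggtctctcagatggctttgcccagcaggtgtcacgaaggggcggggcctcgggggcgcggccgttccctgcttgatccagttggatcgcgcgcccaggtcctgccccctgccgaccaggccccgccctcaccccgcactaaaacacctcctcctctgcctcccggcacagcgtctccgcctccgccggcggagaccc
Between Hadha and Hadhb (chr5:30155163-30155247, plus strand), 85 bases hold the GC box GGGCGG 2 times.
Hadha-Hadhb: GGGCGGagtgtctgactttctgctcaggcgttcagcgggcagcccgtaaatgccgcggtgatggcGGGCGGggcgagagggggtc

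CACNAG was in 12 of 28 member promoters (42.9%), beside 42.5% of all 32851 promoters and 40.4% of the 9748 promoters of genes tested here. CACGCG, the class C letters that HES proteins can also bind, was in 3 of 28 (10.7%), beside 9.27% of all and 17.7% of tested genes. TGGGAA was in 6 of 28 (21.4%), beside 25.6% of all and 22.9% of tested genes. AGGTCA was in 7 of 28 (25%), beside 16.3% of all and 12.1% of tested genes. The GC box was in 23 of 28 (82.1%), beside 35.7% of all and 64.5% of tested genes. The direct repeat bound by PPAR with RXR, AGGTCA repeated after 1 free base, was in 0 of 28, beside 0.0396% of all and 0.0513% of tested genes. A match of letters is a description and not a binding site.

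Deleting Hes1 moved no member past the threshold in either genotype. In the Notch2 mutant 0 members passed, beside 0.0373% of all genes (0.0298% higher, 0.00746% lower), and DESeq2 also called 0. In wild type 0 passed as well, beside 0.0373% (0.0224% higher, 0.0149% lower), with 0 by DESeq2. At an unadjusted p under 0.05, 0 members were higher and 4 lower in the Notch2 mutant, beside 2.49% and 2.27% of all genes. In wild type 0 were higher and 1 lower, beside 2.57% and 3.36%. The members' median was -0.06 in the Notch2 mutant and -0.01 in wild type, with 11 of 35 positive in the Notch2 mutant, beside 49% of all genes, and 12 of 35 in wild type, beside 50.5%. These Hes1 comparisons share no libraries. Their signs were the same for 16 of 35 members, 45.7%, beside 54.3% of all genes, a description without a test. Without overlap of the libraries, 7 members were lower and 1 higher in the Notch2 mutant, beside 5.47% and 5.12% of all genes, and 0 were lower and 1 higher in wild type, beside 5.17% and 5.11%. The 95% intervals of 31 members in the Notch2 mutant and 32 in wild type lay within 0.4 of 0 on the log2 scale.

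In the Notch2 mutant 17 of the 20 mitochondrial oxidation genes were negative, with a median of -0.08, and 7 of the other 15, with a median of 0.00. The Notch2 mutant Hes1 loxP libraries also enter the Notch2 comparison with Hes1 loxP, so the opposite signs of these comparisons are not independent. In wild type 7 of the 20 were positive and 5 of the other 15, with a median of -0.01 for each. Hadh, Ppard, Lpin1 (-0.25 ± 0.11) and Echs1 (-0.12 ± 0.05) were the 4 lower in the Notch2 mutant at an unadjusted p under 0.05. Hadh, the medium- and short-chain hydroxyacyl dehydrogenase, was at 46.6, 47.1 and 48.8 CPM with the Hes1 deletion, below the 52.9, 54.6 and 52.0 CPM of Hes1 loxP (-0.16 ± 0.06). Ppard was at 29.6, 31.1 and 31.8 CPM with the Hes1 deletion, below the 35.7, 33.6 and 34.7 CPM of Hes1 loxP (-0.17 ± 0.07). In wild type, Ppard was at 33.9, 32.7 and 33.2 CPM with the Hes1 deletion and 33.3, 37.9 and 39.3 CPM with Hes1 loxP, which overlap (-0.15 ± 0.07). None of these passed, with edgeR quasi-likelihood Benjamini-Hochberg adjusted p of 0.947 for Hadh, 0.977 for Ppard in the Notch2 mutant and 0.816 for Ppard in wild type. Acaa1a in wild type, at -0.11 ± 0.05 with overlap, did not pass either (edgeR quasi-likelihood test, Benjamini-Hochberg adjusted p = 0.846). Averaged over both genotypes 0 members passed, beside 0.0821% of all genes (0.0671% higher, 0.0149% lower), and 0 by DESeq2. At an unadjusted p under 0.05, Lpl was higher and Ppard and Crat lower, beside 3.2% and 3.69% of all genes, and 10 of 35 members were positive, beside 50.2%.

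**Figure D4:**
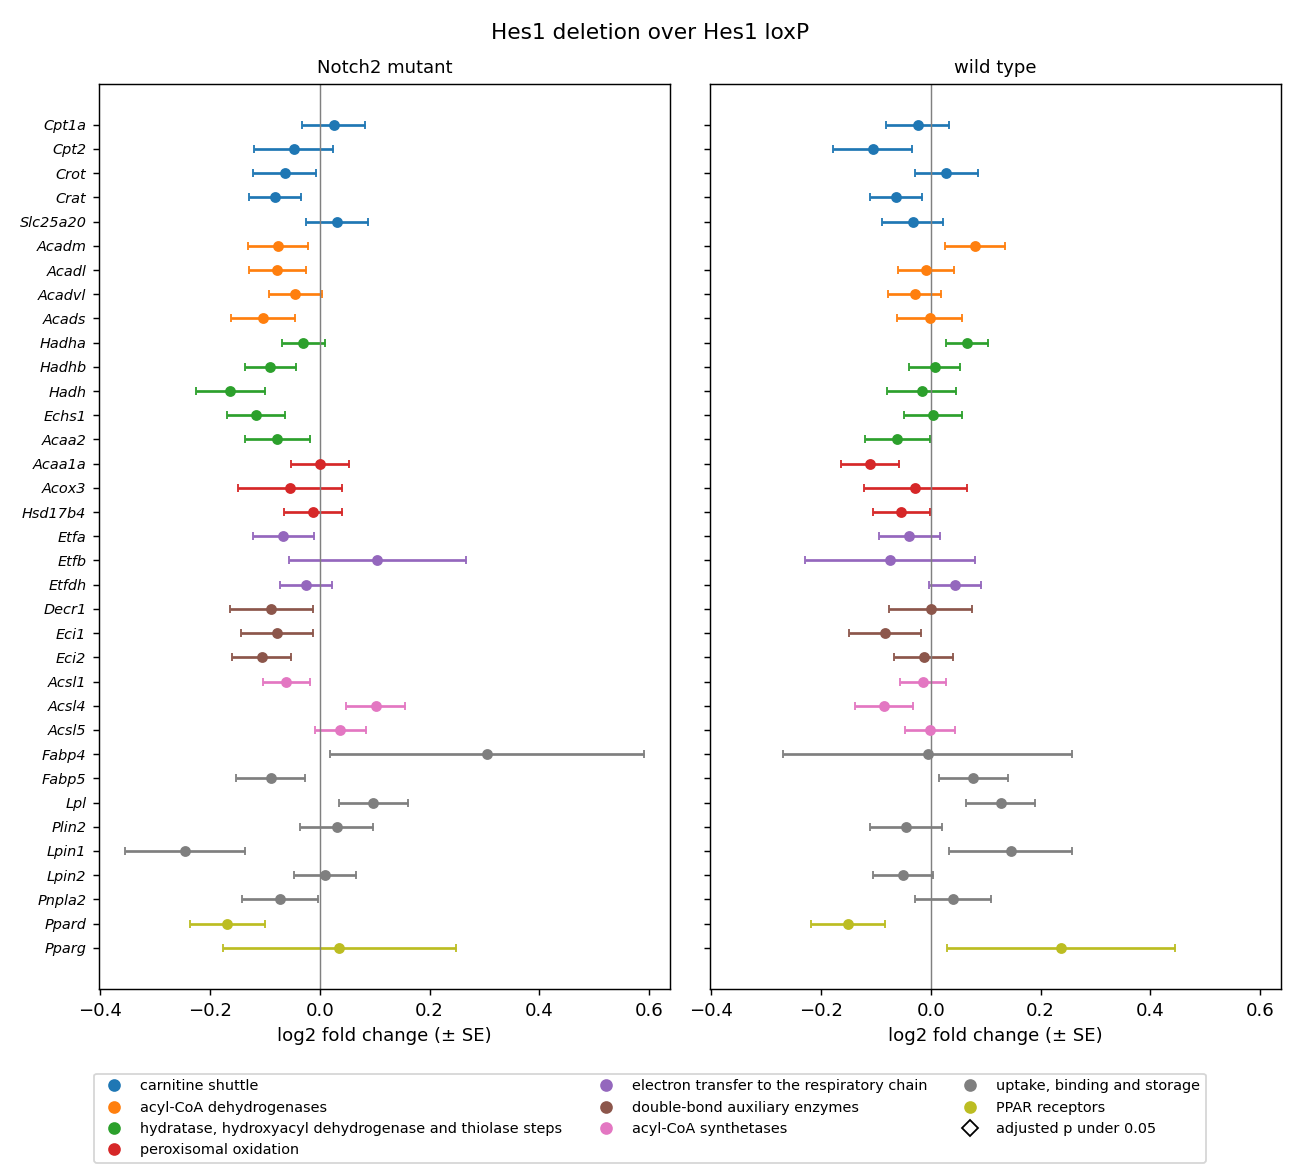
Log2 fold change of the Hes1 deletion over Hes1 loxP for the 35 members in Notch2 mutant cells (left) and wild type cells (right), coloured by role, with bars for SE. No member passed the threshold, and most mitochondrial genes lie just below 0 in the Notch2 mutant.

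The interaction, the Notch2 effect with the Hes1 deletion minus that with Hes1 loxP, passed for 0 members and 0 of all genes by edgeR, and 0 members by DESeq2. At an unadjusted p under 0.05, Acsl4 was positive and Lpin1 negative, beside 2.21% and 1.57% of all genes. Of the 35 members 12 were positive, beside 49.2%. For Lpin1 the value was -0.39 ± 0.16, with a 95% interval of -0.72 to -0.06 (edgeR quasi-likelihood test, Benjamini-Hochberg adjusted p = 0.999), so the smaller Notch2 effect with the Hes1 deletion is not shown to differ.

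Among pathway genes outside the 35, Cd36, a fatty acid receptor that macrophages also carry, fell in the Notch2 mutant with Hes1 loxP. It was at 131, 115 and 119 CPM in the mutant, below the 242, 199 and 163 CPM of wild type, at -0.73 ± 0.11 (edgeR quasi-likelihood test, Benjamini-Hochberg adjusted p = 0.00660). Rxrb, which encodes a partner receptor of the PPARs, rose, at 0.31 ± 0.06 (adjusted p = 0.0193 in the same edgeR test). Neither the 29 other tested beta-oxidation genes nor the 21 of triglyceride metabolism nor the 15 of fatty acid synthesis had a called member. The other beta-oxidation genes were positive in 23 of 29, with a median of 0.11, and Scp2, the peroxisomal sterol carrier thiolase, stood at 0.22 ± 0.06 and Hsd17b10 at 0.17 ± 0.06. By smallest p in the other lists, Acot8 was at 0.22 ± 0.09, Plin3 at 0.20 ± 0.07, Bscl2 at -0.22 ± 0.08, Fads1 at -0.22 ± 0.08, Mlxip at 0.12 ± 0.05, Prkaa1 at -0.24 ± 0.06 and Ucp2 at 0.11 ± 0.04, and none of these passed. In the list of 15 uptake and binding genes 8 were positive, and Cd36 was called. Among 20 regulators 12 were positive, and Rxrb was called. Of 5 tested textbook PPAR targets, Cd36 was called and 3 were positive. With the Hes1 deletion, Cd36 was at -0.52 ± 0.11, without overlap, and did not pass (edgeR quasi-likelihood test, Benjamini-Hochberg adjusted p = 0.313). Rxrb was then at 0.08 ± 0.06, with overlap, and did not pass either. Averaged over both Hes1 states, Cd36 was at -0.62 ± 0.08 and Rxrb at 0.19 ± 0.04, and both passed (adjusted p = 0.00120 and 0.0257 in the same edgeR test).

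Markers of other cell types moved with the Notch2 comparison with Hes1 loxP. Of 12 macrophage markers 9 were negative and 3 passed as lower, and their summed level was 9494 to 10614 CPM in the mutant and 10679 to 11411 CPM in wild type. Of 10 tested stromal and osteoblast markers 9 were negative and 1 passed as lower, at a summed 104 to 220 CPM in the mutant and 223 to 258 CPM in wild type. Of 12 osteoclast markers 11 were positive and 1 passed as higher, at 47109 to 53087 CPM in the mutant and 39844 to 42956 CPM in wild type. Neutrophil markers were negative in 7 of 8 and none passed. Their summed levels overlapped, at 168 to 224 CPM in the mutant and 211 to 284 CPM in wild type. Averaged over both Hes1 states, where Crot, Lpin1 and Pnpla2 were called, 7 of 12 osteoclast markers passed as higher and 4 of 12 macrophage markers as lower.

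Between Notch2 mutant and wild type with the Hes1 deletion, no marker passed, and 11 of 12 osteoclast markers were positive (median 0.15), 9 of 12 macrophage markers negative (median -0.08) and 10 of 10 stromal markers negative (median -0.56). The osteoclast markers summed to 38174 to 42964 CPM in the Notch2 mutant and 31470 to 38414 CPM in wild type there, and the stromal markers to 181 to 261 CPM in the mutant and 286 to 302 CPM in wild type. Between Hes1 deletion and Hes1 loxP, Ctsk fell in both genotypes, and no other marker passed. Negative values were found for 12 of 12 osteoclast markers in the Notch2 mutant and 11 of 12 in wild type. Positive values were found for 8 of 10 stromal markers in the Notch2 mutant and 10 of 10 in wild type. Macrophage markers were positive in 8 of 12 in the Notch2 mutant but negative in 10 of 12 in wild type. Neutrophil markers were negative in 5 of 8 in the Notch2 mutant and 6 of 8 in wild type. The part of these markers in the member results was not tested.

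Of 10 adipocyte markers, Lep and Cidec were at 0 in all 12 libraries and 7 others were at most 0.221 CPM in any library. The remaining one, Lipe, the hormone-sensitive lipase, was at 25.5 to 33.4 CPM over the 12 libraries and made up nearly all of the list's summed level of 25.8 to 29.0 CPM in Notch2 mutant and 26.7 to 33.5 CPM in wild type Hes1 loxP libraries.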

How the data were processed

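RNA was sequenced from 12 mouse osteoclast cultures. The authors deposited raw counts, 1 whole number for each gene. The submitters' processing notes list the tools HTSeq, HISAT2, Picard, SAMtools and DESeq2 and the build GRCm38, without roles. No version, annotation release or strand setting is given there, so reads of antisense genes may not be separated. Each file held 55414 gene IDs and 5 summary rows, left out. GENCODE M21 named 52133 of the IDs.

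The test was run in R 4.3.3 with edgeR 4.0.16 (quasi-likelihood F-test, TMM scaling, filterByExpr with a minimum count of 10 and total of 15, all 12 libraries in 1 fit, two-sided, Benjamini-Hochberg over 13403 genes, threshold 0.05). The SE comes from the F statistic. The test was checked on simulated data. Other settings tried were DESeq2 1.42.0, limma-voom (limma 3.58.1), RLE scaling, a mean count of at least 50, no filter, a replicate block, only the groups compared, and each library left out.

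Level per kb uses the principal transcript, and this was chosen after levels by the union of annotated exons had been seen. The union gives another order, and it is the reason both sets of 3 highest members are described. The bound of 0.4 was chosen for description. The members and lists were chosen with earlier results of these data known. Members were described library by library if called, among the smallest p values of a comparison, or among the 3 highest per length. Echs1, Acaa1a, Cpt2 and Hadh were described so only in the libraries of 1 comparison. No 2 libraries of a group looked like 1 library deposited again: chi-square per gene between them was 2.37 to 8.20. Where replicates are not known to come from separate mice, p-values measure only the spread between these libraries.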

Additional observations from a re-analysis of the deposited data

Results flagged for a closer look

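Hadha, the alpha subunit of the mitochondrial trifunctional protein, was marked because every Hes1 deletion library lay on one side of the Hes1 loxP libraries in the Notch2 mutant and on the opposite side in wild type. It was at 220.5, 221.6 and 217.7 CPM with the Hes1 deletion and 221.7, 226.3 and 225.5 CPM with Hes1 loxP in the Notch2 mutant, and at 222.8, 218.7 and 218.2 CPM with the Hes1 deletion and 214.4, 209.1 and 206.9 CPM with Hes1 loxP in wild type. In the Notch2 mutant the nearest libraries of the groups were at 221.6 and 221.7 CPM. The log2 fold change of the Hes1 deletion was -0.03 ± 0.04 there and 0.07 ± 0.04 in wild type, and neither passed. The interaction was -0.10 ± 0.05 on the log2 scale and did not pass (edgeR quasi-likelihood test, Benjamini-Hochberg adjusted p = 0.999). Groups of 3 were not tested for outlying libraries.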

How the results depend on the processing

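The count of members called in the Notch2 mutant with Hes1 loxP, 2 in the report, was 4 with no filter, 1 with only the groups compared and 0 to 3 with 1 library left out (0 without Notch2 mutant replicate 1 or 3 or wild type replicate 1 or 2). Averaged over both Hes1 states the count of 3 was 6 with no filter, 6 by DESeq2 and 1 to 4 with 1 library left out. The members' median ranged with 1 library left out from 0.0783 to 0.119 with Hes1 loxP, 0.00910 to 0.0521 with the Hes1 deletion, -0.0653 to -0.0328 for the Hes1 deletion in the Notch2 mutant and -0.0543 to -0.0196 for the interaction. The cause of these shifts was not tested. Over all genes, the count in the Notch2 mutant with Hes1 loxP was 104, and 657 with no filter, 242 by DESeq2 and 26 to 289 with 1 library left out. Averaged over both states it was 253, and 853, 420 and 63 to 319. With no filter the other comparisons gave 138 (Notch2, Hes1 deletion), 135 and 110 (Hes1 deletion in wild type and in the Notch2 mutant), 63 (interaction) and 184 (Hes1 deletion, both genotypes) of all genes, against 2, 5, 5, 0 and 11. DESeq2 gave 10 for the Hes1 deletion in wild type and 20 over both genotypes. Correlations of same-numbered libraries were -0.0993 to 0.139, so the numbers were not taken to pair samples. Under the replicate block 3 members were called with Hes1 loxP and 4 over both states, and all genes gave 148 and 325. With Hes1 loxP every library correlated best with the one of its own number, a hint from the data and not the design. The 13 results tested for single members kept their sign under all settings run. Fitting only the groups compared was not defined for the interaction and the means. By the union of exons, Lpl was at 133, Plin2 at 81.5 and Fabp5 at 47.4 CPM per kb. Low counts limit Fabp4, Pparg and Etfb most. Etfb shares exon bases with Gm45233 on the same strand, and the part of this in its low count was not tested.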
